A study of Homo sapiens with 10 samples.

Results

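The 8 genes described here encode transcription factors that are enriched in liver. They are HNF4A and HNF4G, FOXA1, FOXA2 and FOXA3, CEBPA, NR1H4 (the bile acid receptor FXR) and NR5A2 (LRH-1). They were chosen by name from the 19215 gene symbols of the deposited counts, and all 8 were found there. RNA was sequenced from 10 libraries of SK-Hep1 and HepG2, human cell lines labelled hepatocellular carcinoma. HepG2 is known for hepatocyte features, while SK-Hep1 has also been described as endothelial in origin. Each line stably carried, from a lentivirus, a tough decoy (TuD) transcript, whose hairpin sequesters microRNAs, either against miR-17 or as a negative control (NC). The groups were SK-Hep1 miR-17 TuD (2 libraries), SK-Hep1 NC TuD (2 libraries), HepG2 miR-17 TuD (3 libraries) and HepG2 NC TuD (3 libraries). All groups shared a 48 h transduction (multiplicity of infection 5, polybrene 10 µg/mL), then puromycin at 1 µg/mL for 2 weeks, after which resistant colonies were combined. Every group thus comes from 1 pool of cells, and the decoy cannot be told apart from other differences between the pools of a line. Nothing in the labels gives replicates as separate cultures, so p-values measure the spread between these libraries, which may be technical.

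Liver-enriched factors work as a network in which no single factor sets hepatocyte identity alone. FOXA proteins open closed chromatin at liver enhancers, HNF4A binds there as a homodimer and drives genes for lipoproteins, clotting factors and metabolism, and CEBPA adds control of energy metabolism and growth arrest. FXR senses bile acids and induces the repressor NR0B2 (SHP), which acts on LRH-1, a driver of bile acid synthesis.

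Whether transcripts of these genes hold sites for the blocked microRNAs was read from sequence. The mature microRNAs of the miR-17 family are shown because a decoy against 1 of them can bind the others through a shared seed. The 6 printed are RefSeq entries (GRCh38.p14), with bases 2 to 8, the seed, in capitals.
hsa-miR-17-5p: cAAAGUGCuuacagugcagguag
hsa-miR-20a-5p: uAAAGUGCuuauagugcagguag
hsa-miR-20b-5p: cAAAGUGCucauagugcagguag
hsa-miR-93-5p: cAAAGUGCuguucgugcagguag
hsa-miR-106a-5p: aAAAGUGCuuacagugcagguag
hsa-miR-106b-5p: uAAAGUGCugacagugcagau

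In the longest annotated 3′ untranslated region (3′UTR) of each gene (GENCODE 29, GRCh38), a match to the whole seed, GCACTTT, was present in 4 of the 8 genes. They were HNF4A, FOXA1, NR1H4 and HNF4G, each with 1 such match, and HNF4G had 1 further match of the weaker kind CACTTTA. The 3′UTRs of FOXA2, FOXA3, NR5A2 and CEBPA held none. Of 19115 protein-coding genes with a 3′UTR, 21.4% held a full seed match. The sites of FOXA1 and NR1H4 are shown with 11 bases on either side and the match in capitals, because their genes did not behave alike in the data.
FOXA1: tccagtgttatGCACTTTccacagttgga
NR1H4: tactgtctctcGCACTTTtgtcatctctg

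The FOXA1 site lies at chr14:37590255-37590283 on the minus strand, in a 3′UTR of 1381 bases. The NR1H4 site lies at chr12:100563964-100563992 on the plus strand, in a 3′UTR of 924 bases. A match is a description of letters and does not show binding.

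Promoter windows, from 250 bases before to 50 bases after the start of transcription, were found in RefSeq for 6 of the 8 genes. HNF4A and NR5A2 have 2 windows each. The downstream NR5A2 window held, on the opposite strand, the FOXA core TGTTTAC, found in 3.42% of 35116 windows of the same length. The box TATAAA began 30 bases before the start of both FOXA3 and CEBPA, and 11.5% of windows held it. In the upstream NR5A2 window it lay on the opposite strand, in a stretch that began 201 bases before the start. CCAAT, in 34.6% of windows, was found on the opposite strand in the upstream window of HNF4A. No window of these genes held CAAAGTCCA (an HNF4 site), TCAAGGTCA (an LRH-1 site) or TTGCGCAA (a CEBP site), which 0.384%, 0.353% and 0.151% of windows held. All were searched on both strands, and none of the matches named overlapped another.

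Libraries held 12884225 to 15076431 gene counts, and 1 count was worth 0.0657 to 0.0795 CPM, counts per 1e6 after scaling. Tests used 13349 genes that passed a filter on low counts, among them all 8 factors. A gene was called at an adjusted p below 0.05, and changes are log2 fold change ± SE unless stated. The defining markers of hepatocytes went with the label of HepG2, where all 13 genes of the marker list had counts in every library. In SK-Hep1 miR-17 TuD libraries 6 and 5 of the 13 were at 0, and in NC TuD libraries 1 was. The 10 endothelial markers did not go 1 way. SK-Hep1 libraries had 0 counts of PECAM1 and KDR, which define endothelium, and 4 or 5 of the 10 at 0, but KDR was at 0 in HepG2 too. ENG was higher in SK-Hep1, with 69.7 and 67.1 CPM in the miR-17 TuD and NC TuD arms against 5.45 and 3.42 CPM in the matching HepG2 arms. The summed level of the 10 in SK-Hep1 libraries was 175% to 245% of HepG2, and most of that sum was ENG. Of 6 endothelial markers tested between the lines, 1 was called higher and 5 lower in SK-Hep1 in either arm. Beside these, 42.8% and 43.1% of all genes were called lower in the NC TuD and miR-17 TuD arms. Of 7 mesenchymal markers tested, 6 were called higher and 1 lower in SK-Hep1 in either arm, beside 86.7% and 87.3% of genes called at all. VIM, THY1 and TWIST1 were present in SK-Hep1. FN1 was lower there, at 6478 and 5974 CPM under the miR-17 TuD and NC TuD, against 15611 and 15464 CPM in HepG2. The summed mesenchymal level in SK-Hep1 libraries was 95.4% to 105% of HepG2, but different genes made up the sum in each line. In HepG2 it was nearly all FN1, while in SK-Hep1 it was mostly VIM, with FN1 next. VIM had 9581 and 8822 CPM in SK-Hep1 under the miR-17 TuD and NC TuD, against 1.77 and 1.98 CPM in HepG2. The like sums thus do not show like mesenchymal levels.

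**Figure D1:**
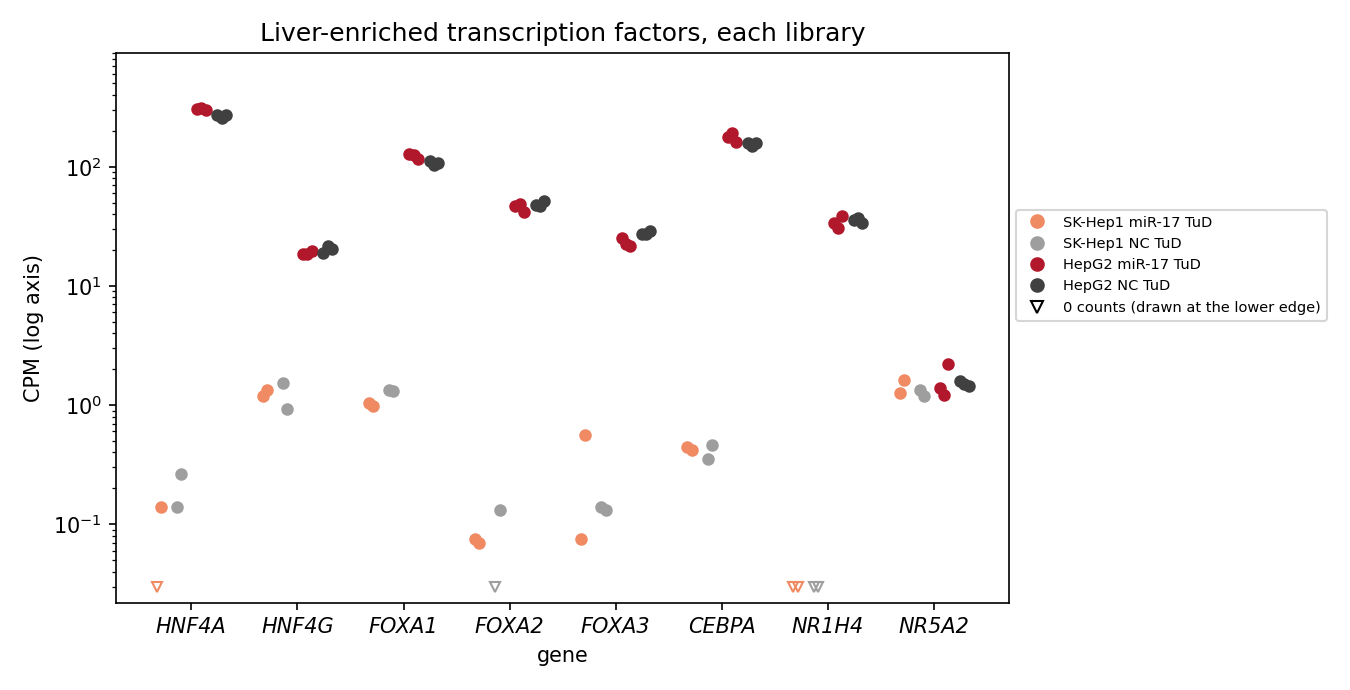
CPM of each factor (log axis) in each library, by group, with libraries at 0 counts drawn as open triangles at the lower edge. NR5A2 is the factor at like levels in both lines, while NR1H4 has 0 counts in the 4 SK-Hep1 libraries.

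Levels of the 8 factors in HepG2 spanned a wide range. Per kilobase of merged exons, CEBPA was the most abundant, with 67.1 ± 5.83 CPM per kb in miR-17 TuD cells and 58.9 ± 2.10 in NC TuD cells (mean ± SD, n = 3 each). FOXA1 followed with 43.2 ± 2.02 and 37.5 ± 1.51 CPM per kb, and HNF4A with 42.4 ± 0.918 and 36.8 ± 1.28, a pair that did not differ beyond its spread in either arm. FOXA2 had 17.5 ± 1.33 and 18.8 ± 0.957 CPM per kb, FOXA3 had 11.6 ± 0.903 and 13.8 ± 0.464, and NR1H4 had 10.0 ± 1.21 and 10.4 ± 0.552. The mean ± SD ranges of FOXA3 and NR1H4 overlapped in miR-17 TuD cells. HNF4G stood at 4.25 ± 0.168 and 4.57 ± 0.299 CPM per kb, and NR5A2 was lowest at 0.306 ± 0.101 and 0.292 ± 0.0144. Of the CEBPA exon, 659 and 482 bases are shared with a pair of antisense genes, and the library kit does not record strand, so CEBPA counts may hold reads of those genes.

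The decoy comparison in HepG2 asked whether these factors differed when the miR-17 family was blocked. HNF4A, FOXA1 and CEBPA rose in miR-17 TuD cells and FOXA3 fell, each by less than 1.5-fold. HNF4G, FOXA2, NR1H4 and NR5A2 did not pass the test. Thus 4 of 8 factors were called, beside 19.3% of all genes tested. By direction, 3 were higher and 1 was lower, beside 10.7% of genes called higher and 8.58% called lower. The median change over the 8 was 0.00, as it was over all genes. On the deposited log2 matrix, fitted by limma over both lines, the 4 changes kept their sign, at 0.18 to 0.20 for the factors that rose and -0.26 for FOXA3, but 0 were called (adjusted p 0.884 for HNF4A, 0.0742 for FOXA1, 0.269 for CEBPA and 0.803 for FOXA3), and with HepG2 libraries alone 3 were, without CEBPA.

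HNF4A, the nuclear receptor at the centre of the hepatocyte network, had 306, 312 and 299 CPM in HepG2 miR-17 TuD libraries, against 269, 255 and 272 CPM in NC TuD libraries. All 3 decoy libraries lay above all 3 control libraries. The means were 305.6 ± 6.61 and 265.2 ± 9.23 CPM (SD, n = 3 each), a change of 0.20 ± 0.04 (1.15-fold, adjusted p = 8.08e-05). HNF4G, its close relative, which recognises like sites, had 18.4, 18.6 and 19.8 CPM in miR-17 TuD libraries, against 19.0, 21.6 and 20.5 CPM in NC TuD libraries. The arms overlapped, and the change was -0.10 ± 0.09 (95% interval -0.28 to 0.07, adjusted p = 0.471).

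FOXA1, a pioneer factor, had 128, 126 and 117 CPM in miR-17 TuD libraries, against 112, 103 and 107 CPM in NC TuD libraries. The arms did not overlap, and the change was 0.20 ± 0.05 (1.15-fold, adjusted p = 0.00119). FOXA2, which binds the same motif, had 46.7, 48.5 and 41.8 CPM in miR-17 TuD libraries, against 47.7, 47.2 and 51.8 CPM in NC TuD libraries. Its arms overlapped, with a change of -0.10 ± 0.07 (95% interval -0.23 to 0.03, adjusted p = 0.338). FOXA3, the relative that appears latest in liver development in mice, had 25.0, 22.7 and 21.5 CPM in miR-17 TuD libraries, against 27.0, 27.0 and 28.6 CPM in NC TuD libraries. All decoy libraries lay below all control libraries, and the change was -0.26 ± 0.08 (0.837-fold, adjusted p = 0.0204). The FOXA3 call was lost with DESeq2 (adjusted p = 0.155). It was also lost without miR-17 TuD replicate 2 (0.0649) or 3 (0.0844), or without NC TuD replicate 1 (0.0511) or 3 (0.0828).

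CEBPA, a leucine zipper factor of mature hepatocytes, had 178, 191 and 160 CPM in miR-17 TuD libraries, against 157, 149 and 159 CPM in NC TuD libraries. The arms did not overlap, though the lowest decoy library was close to the highest control library, and the change was 0.19 ± 0.05 (1.14-fold, adjusted p = 0.00201). Without miR-17 TuD replicate 2 the change was 0.13 and the call was lost (adjusted p = 0.0617). NR1H4 had 33.5, 30.5 and 38.7 CPM in miR-17 TuD libraries, against 35.8, 37.2 and 33.5 CPM in NC TuD libraries. These overlapped throughout, with a change of -0.06 ± 0.08 (95% interval -0.21 to 0.09, adjusted p = 0.678). NR5A2 had 20, 18 and 29 counts in miR-17 TuD libraries, against 22, 19 and 20 counts in NC TuD libraries. At that depth the interval of its change ran from -0.50 to 0.61, so a change of that size was not detectable (adjusted p = 0.95).

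**Figure D2:**
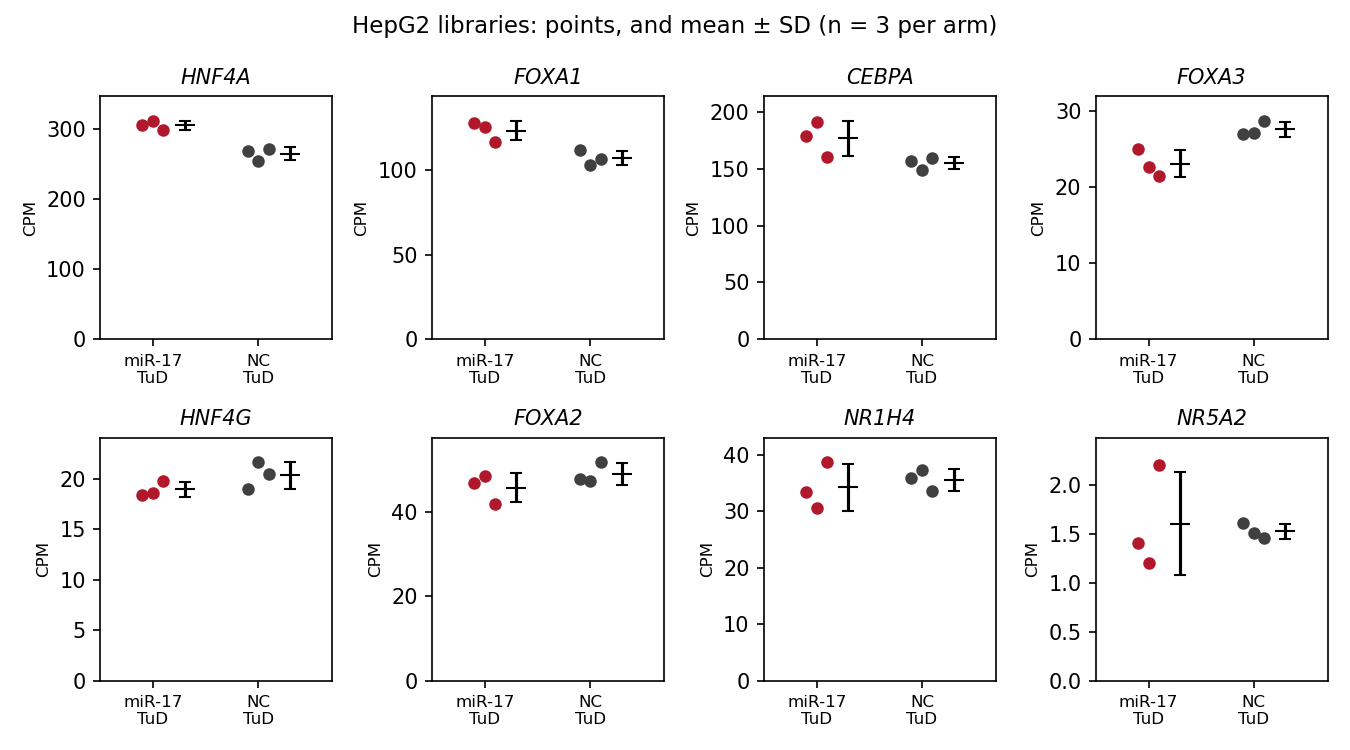
CPM of each factor in the HepG2 libraries (points), with mean ± SD to the right of each arm (n = 3), miR-17 TuD at left and NC TuD at right. HNF4A, FOXA1 and CEBPA have decoy libraries above all control libraries, FOXA3 has them below, and the lower row overlaps.

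Among the 4 genes with a full seed match in the 3′UTR, HNF4A and FOXA1 rose, and HNF4G and NR1H4 did not pass the test. Among the 4 without one, CEBPA rose, FOXA3 fell, and FOXA2 and NR5A2 did not pass the test. The factors that rose were thus found on either side of this division.

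The opposite calls within the FOXA family were also seen in its make-up. FOXA1 made up 59.8% ± 0.563 of the summed FOXA level per kb in HepG2 miR-17 TuD cells and 53.5% ± 1.47 in NC TuD cells (SD, n = 3 each). FOXA2 made up 24.2% ± 0.846 and 26.8% ± 0.972 in these arms, and FOXA3 16.0% ± 0.633 and 19.7% ± 0.546. The arms did not overlap for any of the 3 shares, and 2-sided exact permutation tests gave p = 0.1 each, the smallest that 3 against 3 libraries allow. HNF4A made up 90.9% ± 0.487 of the HNF4 level per kb in miR-17 TuD cells and 88.9% ± 0.940 in NC TuD cells, with arms that did not overlap (exact p = 0.1). Shares of a family sum to 100%, so its members' shares are not separate results.

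**Figure D3:**
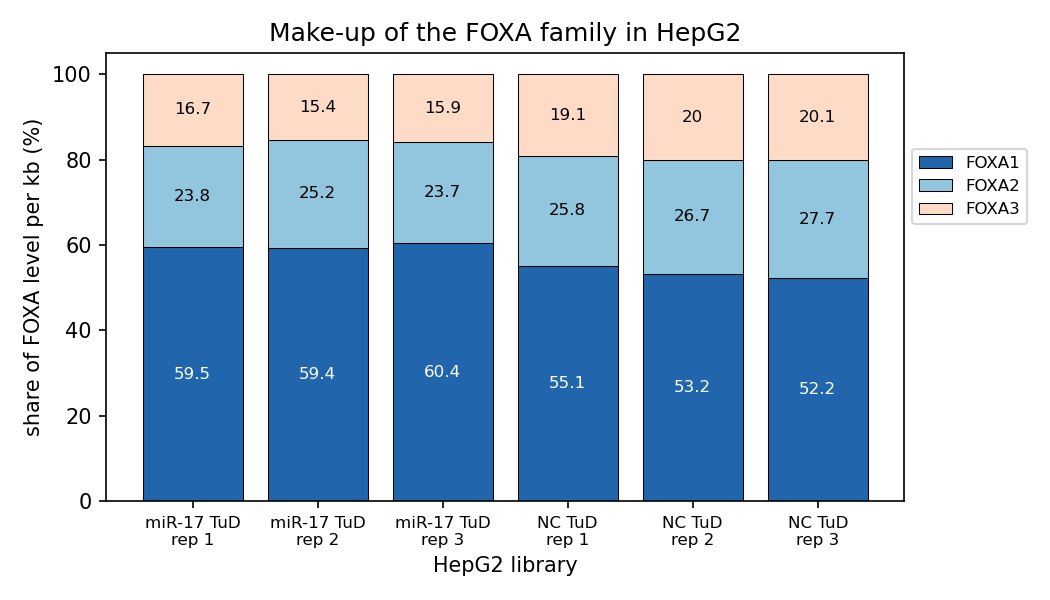
Share of the summed FOXA1, FOXA2 and FOXA3 level per kilobase in each HepG2 library (%), miR-17 TuD libraries at left and NC TuD libraries at right. FOXA1 takes 59.4% to 60.4% of it in miR-17 TuD libraries and 52.2% to 55.1% in NC TuD libraries.

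In SK-Hep1, 0 of the 8 factors were called between the decoy arms by edgeR, beside 0.869% of genes, and 0 had an unadjusted p below 0.05. DESeq2 called 0 as well. HNF4G, FOXA1 and NR5A2 had enough counts for a change to be given. HNF4G had 16 and 19 counts in SK-Hep1 miR-17 TuD libraries, against 22 and 14 in NC TuD libraries, a change of 0.05 ± 0.35 (95% interval -0.64 to 0.74). FOXA1 had 14 counts in each miR-17 TuD library, against 19 and 20 in NC TuD libraries. These FOXA1 counts did not overlap, but the change was -0.38 ± 0.34 (95% interval -1.07 to 0.30, adjusted p = 0.823). NR5A2 had 17 and 23 counts in miR-17 TuD libraries, against 19 and 18 in NC TuD libraries, a change of 0.20 ± 0.36 (95% interval -0.51 to 0.91). The other factors were at or near the floor of 3 counts. CEBPA had 6 and 6 counts in miR-17 TuD libraries and 5 and 7 in NC TuD libraries, FOXA3 had 1 and 8 against 2 and 2, HNF4A had 0 and 2 against 2 and 4, and FOXA2 had 1 and 1 against 0 and 2.

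**Figure D4:**
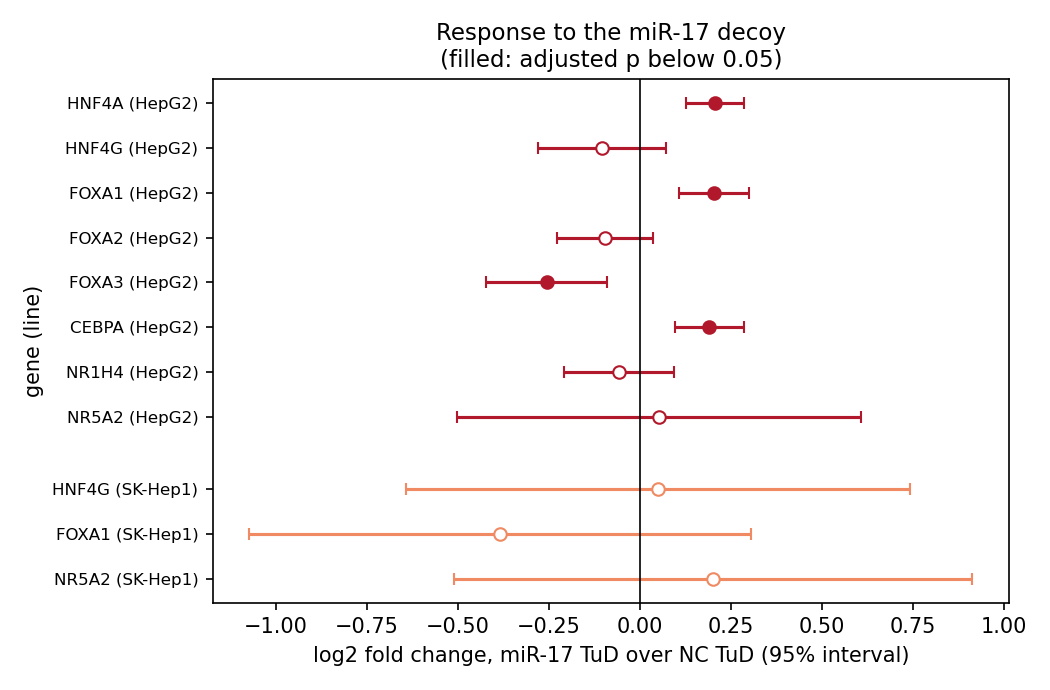
Log2 fold change of miR-17 TuD over NC TuD with its 95% interval, for the 8 factors in HepG2 and for the 3 with enough counts in SK-Hep1. Filled points passed an adjusted p of 0.05, all of them in HepG2, and the SK-Hep1 intervals are wider.

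Whether the response differed between the lines was tested directly as SK-Hep1 minus HepG2. Of all genes 3.75% were called, and 0 of the 8 factors were, by edgeR or DESeq2, or at an unadjusted p below 0.05. The difference was -0.59 ± 0.35 for FOXA1 (95% interval -1.28 to 0.11, adjusted p = 0.444). For HNF4G it was 0.15 ± 0.36, and for NR5A2 it was 0.15 ± 0.45. On the authors' deposited log2 matrix, the difference for FOXA1 was -0.57 and was called (adjusted p = 0.0166).

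Between the lines, SK-Hep1 had far lower levels of 7 of the 8 factors than HepG2, and a like level of NR5A2. In NC TuD cells 7 were called lower, beside 86.7% of genes called at all and 42.8% called lower. In miR-17 TuD cells 7 were called lower, beside 87.3% and 43.1%. Of these factors, those scarce in SK-Hep1 passed the filter through their level in HepG2 and had to differ, so this count is a description. In bulk RNA, fewer cells that express a gene and less RNA per cell cannot be told apart.

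NR1H4 had 0 counts in each SK-Hep1 library, against 456 to 510 counts in HepG2 miR-17 TuD libraries and 460 to 491 in HepG2 NC TuD libraries. With its SK-Hep1 counts set to the floor of 3 per group, NR1H4 was 314-fold lower than in HepG2 in miR-17 TuD cells. In NC TuD cells it was 348-fold lower by the same floor. The exact 95% counting intervals were wider, and reached 0.392% and 0.354% of the HepG2 level in these arms. HNF4A had 2 counts in SK-Hep1 miR-17 TuD, against 12978 in HepG2 miR-17 TuD, or 0.0236% of the HepG2 level (exact 95% counting interval 0.00286% to 0.0854%). In NC TuD cells, 6 counts in SK-Hep1 against 10624 in HepG2 were 0.0767% (0.0281% to 0.167%). FOXA2, with 2 SK-Hep1 counts in either arm, was at 0.158% of HepG2 under the miR-17 TuD and 0.139% under the NC TuD. As a percent of HepG2, these 3 genes had the lowest values of the 8.

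CEBPA in SK-Hep1 was at 0.245% of the HepG2 level in miR-17 TuD cells (0.126% to 0.428%) and at 0.263% in NC TuD cells (0.136% to 0.459%). FOXA3 was at 1.41% (0.642% to 2.69%) and 0.493% (0.134% to 1.26%), where 8 of its 9 miR-17 TuD counts came from replicate 2. FOXA1 was at 0.817% (0.542% to 1.18%) and 1.23% (0.874% to 1.69%), and HNF4G at 6.69% (4.63% to 9.38%) and 6.01% (4.18% to 8.40%). In log2 terms, FOXA1 was -6.92 ± 0.12 and -6.33 ± 0.12 in SK-Hep1 relative to HepG2, under the miR-17 TuD and the NC TuD, and HNF4G was -3.89 ± 0.18 and -4.05 ± 0.17. HNF4G was therefore the least reduced of the 7. Of the HNF4 level per kb, HNF4G made up 93.9% and 100% in SK-Hep1 miR-17 TuD libraries and 85.0% and 94.7% in NC TuD libraries, against 8.78% to 9.67% and 10.2% to 12.1% in the matching HepG2 arms.

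NR5A2 had 17, 23, 19 and 18 counts in the SK-Hep1 libraries, against 18 to 29 in the HepG2 libraries. In CPM it had 1.44 ± 0.241 in SK-Hep1 miR-17 TuD (SD, n = 2) and 1.60 ± 0.527 in HepG2 miR-17 TuD (n = 3), a difference of -0.13 ± 0.31 (95% interval -0.75 to 0.50, adjusted p = 0.701). In NC TuD cells it had 1.26 ± 0.108 CPM in SK-Hep1 and 1.52 ± 0.0753 in HepG2, a difference of -0.28 ± 0.32 (95% interval -0.92 to 0.37, adjusted p = 0.415). The intervals exclude a 2-fold higher or lower level in SK-Hep1, and smaller differences were not detectable at these counts. In SK-Hep1 the order per kb in NC TuD cells was FOXA1 (0.463), HNF4G (0.277), NR5A2 (0.241), CEBPA (0.154), FOXA3 (0.0683), HNF4A (0.0280), FOXA2 (0.0252) and NR1H4 (0). Of neighbours in that order, the mean ± SD ranges of HNF4G and NR5A2, and of HNF4A and FOXA2, overlapped (n = 2). The range of FOXA2 (SD 0.0357) also included 0, the level of NR1H4.

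Transcripts of hepatocyte genes were themselves present at trace level in SK-Hep1, and their values stand beside the low counts of the factors. Summed over the 13 markers, SK-Hep1 libraries had 0.230% and 0.245% of the HepG2 level under the miR-17 TuD and 0.200% and 0.236% under the NC TuD, most of it SERPINA1, at 1.35% in both arms. For 11 other markers, TTR aside, SK-Hep1 NC TuD had 0.0311% to 0.0982% of the HepG2 level, with a median of 0.0626%. HNF4A, at 0.0767%, lay inside that range, and the interval of FOXA2 (0.0168% to 0.502%) spanned it. The intervals of CEBPA, FOXA3, FOXA1 and HNF4G lay above it. In SK-Hep1 miR-17 TuD the same 11 markers ran from 0% to 0.861%, with a median of 0.00548% and 3 at 0. The part of shared reads or of other cells in the few HNF4A counts was not tested.

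**Figure D5:**
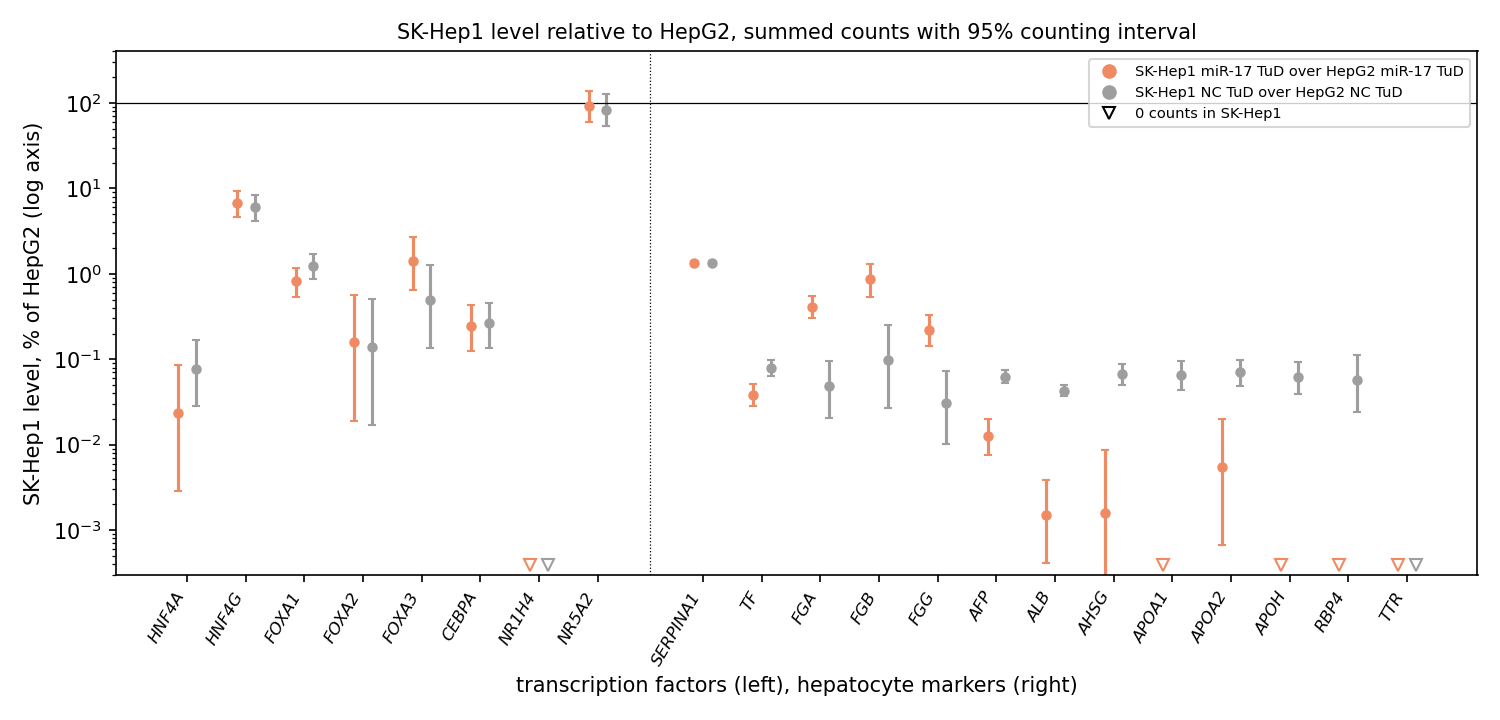
Level in SK-Hep1 as a percent of HepG2 (log axis) for the 8 factors and 13 hepatocyte markers, from summed counts in matching arms, with exact 95% counting intervals. NR5A2 lies near 100%, HNF4G at 6.69% and 6.01%, and HNF4A among the hepatocyte markers.

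Genes that work with these factors were read in the HepG2 decoy comparison from lists of partners, cofactors and targets. In that comparison 19.3% of all genes tested were called, 10.7% higher and 8.58% lower, and these shares stand beside each list. Of 26 partner transcription factors, 1 was called higher and 1 lower in miR-17 TuD cells, or 7.69%, below the share over all genes. NR1I2, the xenobiotic receptor PXR, had 34.9 ± 0.832 CPM in miR-17 TuD cells and 29.1 ± 1.34 in NC TuD cells, a change of 0.26 ± 0.07 (adjusted p = 0.00681). The NR1I2 call was lost in 2 of 17 alternatives (adjusted p up to 0.784). HLF, a leucine zipper factor of the clock-linked PAR family, had a change of -0.10 ± 0.04 (adjusted p = 0.0447) with arms that overlapped, and its call was lost in 11 of 17 alternatives (adjusted p up to 0.729). ONECUT1, the factor HNF6, had a change of 0.08 ± 0.13 (adjusted p = 0.776).

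Of 24 cofactors and modulators, 5 were called higher and 6 lower, or 45.8%, beside 19.3% of all genes. PRMT1, an arginine methyltransferase, had 207.8 ± 5.36 CPM in miR-17 TuD cells and 240.1 ± 0.229 in NC TuD cells, a change of -0.21 ± 0.04 (adjusted p = 3.01e-05). TLE4, a Groucho corepressor, had 2.33 ± 0.238 and 4.62 ± 0.436 CPM, a change of -0.98 ± 0.18 (adjusted p = 3.01e-05). Its relative TLE1 was called the other way, at 0.26 ± 0.05 (adjusted p = 4.29e-05), and NCOA1, a nuclear receptor coactivator, rose by 0.38 ± 0.07 (adjusted p = 0.000103). NR0B2, the FXR-induced repressor, had 51.8 ± 4.58 CPM in miR-17 TuD cells and 50.7 ± 1.07 in NC TuD cells, a change of 0.03 ± 0.07 (adjusted p = 0.808). PPARGC1A, a coactivator of HNF4A in fasting, had a change of -0.05 ± 0.07 (0.725), and TRIB1, which directs CEBPA protein to degradation, a change of 0.02 ± 0.05 (0.822).

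Known targets did not follow 1 direction. Over the target lists of HNF4A, the FOXA factors, CEBPA, FXR and LRH-1 joined, 45 of 54 genes were tested, of which 6 were called higher and 13 lower, beside 10.7% and 8.58% of all genes. The median change was -0.01, beside 0.00 over all genes. Of 17 HNF4A targets tested, 3 were called higher and 8 lower. FABP1, a fatty acid carrier, had 82.7 ± 1.96 CPM in miR-17 TuD cells and 130.8 ± 6.03 in NC TuD cells, a change of -0.66 ± 0.05 (adjusted p = 2.76e-16). MTTP, which loads lipid onto apolipoprotein B, changed by -0.49 ± 0.05 (2.06e-12), the thyroxine carrier TTR by -0.54 ± 0.06 (1.2e-10), and APOM, an apolipoprotein of HDL, by -0.39 ± 0.05 (8.15e-09). Of 12 FOXA targets, 3 were called higher and 5 lower. ALB had 9502 ± 358 CPM in miR-17 TuD cells and 13572 ± 310 in NC TuD cells, a change of -0.51 ± 0.04 (7.79e-09), and AFP, the fetal serum protein, changed by -0.54 ± 0.03 (2.54e-20). CDH1, E-cadherin, rose by 1.46 ± 0.09 (3.77e-20).

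Of 9 CEBPA targets tested, 1 was called higher and 3 lower. PCK1, a gluconeogenic enzyme, had 1.25 ± 0.192 CPM in miR-17 TuD cells and 3.69 ± 0.237 in NC TuD cells, a change of -1.56 ± 0.24 (adjusted p = 8.77e-07). TAT, tyrosine aminotransferase, changed by -0.44 ± 0.14 (0.0221) and SERPINA1, alpha-1 antitrypsin, by 0.08 ± 0.03 (0.0409). The TAT call was lost in 6 of 17 alternatives (adjusted p up to 0.496) and the SERPINA1 call in 10 of 17 (up to 0.212). Of 17 targets of FXR and LRH-1 tested, 1 was higher and 1 lower. These were complement C3, at 0.19 ± 0.03 (1.04e-05), and the bile acid glucuronidating enzyme UGT2B4, at -1.56 ± 0.37 (0.00154) on 21 counts in miR-17 TuD libraries and 59 in NC TuD ones. The 3 target genes by which FXR is often read, ABCB11, FGF19 and CYP7A1, had 0 to 9 counts per HepG2 arm and were not tested.

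Of 20 bile acid genes tested, 3 were called higher and 1 lower, or 20%, near the 19.3% of all genes. ABCC3, a basolateral exporter, had 216.6 ± 12.4 CPM in miR-17 TuD cells and 143.8 ± 3.26 in NC TuD cells, a change of 0.59 ± 0.04 (adjusted p = 2.13e-16). ATP8B1, a lipid flippase of the canalicular membrane, rose by 0.56 ± 0.07 (3.12e-08) and HSD3B7, an enzyme of bile acid synthesis, by 0.21 ± 0.06 (0.00702). The HSD3B7 call was lost in 2 of 17 alternatives (adjusted p up to 0.112). Among them was the fit without decoy replicate 2, where the log2 fold change was 0.15. BAAT, which conjugates bile acids, fell by 0.70 (SE 0.18, adjusted p = 0.00272). The BAAT call was lost in 2 of 17 alternatives (adjusted p up to 0.401). Of 10 progenitor and biliary genes, 4 were called higher and 3 lower, or 70%, beside the same 19.3%. CD24 rose by 0.86 ± 0.05 (2.04e-20) and SPP1, osteopontin, by 0.45 ± 0.03 (7.74e-17), while DLK1 changed by -0.48 ± 0.04 (1.01e-12) and GPC3, glypican-3, by -0.38 ± 0.04 (3.27e-10).

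Of the 13 hepatocyte markers in HepG2, 10 were called lower and 1 higher in miR-17 TuD cells, beside 8.58% and 10.7% of all genes. Their summed level was 30827 to 31791 CPM in miR-17 TuD libraries, against 37931 to 38808 CPM in NC TuD libraries. The fibrinogen chains FGB, FGG and FGA changed by -0.65 ± 0.05, -0.48 ± 0.04 and -0.42 ± 0.04. The 8 factors together stood at 700 to 750 CPM in miR-17 TuD libraries, against 641 to 674 CPM in NC TuD libraries. The marker sum was thus lower and the factor sum higher in every decoy library. Most of the factor sum was HNF4A, CEBPA and FOXA1, while FOXA3 was called lower. ALB and AFP made up most of the fall in the marker sum. AFP had 5162 CPM in miR-17 TuD cells and 7482 CPM in NC TuD cells. Endothelial markers summed to 34.7 to 39.1 CPM in HepG2 miR-17 TuD libraries, against 26.4 to 30.7 CPM in NC TuD libraries, with 2 called higher and 1 lower of 6 tested. ENG rose by 0.67 ± 0.16 (adjusted p = 0.00158) and ESAM, a junctional adhesion protein, by 0.43 ± 0.08 (9.23e-05), while CDH5, VE-cadherin, had 18 counts in miR-17 TuD libraries and 49 in NC TuD ones (0.00572), a call lost without NC TuD replicate 2. In HepG2, mesenchymal markers had 2 called higher of 7 tested, COL1A1 at 0.64 ± 0.11 (5.37e-06) and SNAI2 with 15 counts in miR-17 TuD libraries and 1 in NC TuD ones (0.00492). These markers summed to 15503 to 15818 CPM in miR-17 TuD libraries, against 14757 to 16089 CPM in NC TuD libraries. The part of these shifts in the changes of the factors was not tested.

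In SK-Hep1, 0.667% of all genes were called higher and 0.202% lower in miR-17 TuD cells, and the companion lists differed in their calls. Of the 13 hepatocyte markers 3 were called higher and 6 lower, all at trace levels. Those higher were the fibrinogen chains, with FGA at 48 counts under the miR-17 TuD and 8 under the NC TuD. Those lower were ALB (4 and 172 counts), AFP (18 and 138), AHSG (1 and 50), APOA1 (0 and 27), APOA2 (2 and 33) and APOH (0 and 23). CPS1, a urea cycle enzyme listed as a target of FOXA and CEBPA factors, had 274 counts under the miR-17 TuD and 165 under the NC TuD, a change of 0.82 ± 0.15 (adjusted p = 0.000413). Of 12 FOXA targets 3 were called, ALB, AFP and CPS1. GPC3, also at trace level, had 9 counts under the miR-17 TuD and 51 under the NC TuD, and was called lower (adjusted p = 0.00251). Its change of -2.38 ± 0.47 ran from -3.46 to -1.23 when 1 library was left out, and the call was lost in 3 of 16 alternatives, among them the fits that left out NC TuD replicate 2 (-1.23) and, in the decoy arm, replicate 1 (-1.80). The CPS1 call was lost without NC TuD replicate 2, where the log2 fold change was 0.58. Partner factors and cofactors had 0 calls of 26 and 0 of 24.

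Likeness of profile over the 10 libraries was measured as the root mean square difference of centred log2 CPM, among genes with an average of at least 1. Nearest to HNF4A were DUSP9 (0.184) and NQO1 (0.245), to HNF4G EFNA1 (0.125) and AK4 (0.136), and to FOXA1 PLXNB1 (0.124) and ZNF83 (0.148). Nearest to FOXA2 were PLEKHB1 (0.149) and APOC3 (0.175), and to FOXA3 ZNF853 (0.258) and CREB3L3 (0.264). For CEBPA these were ZBED6CL (0.109) and WNK2 (0.118), for NR5A2 MTPAP (0.134) and REST (0.135), and the second nearest to NR1H4 was SERPIND1 (0.135). Except for NR5A2, which had like levels in both lines, the difference between lines carries most of each profile. For the other factors these distances thus describe that split first.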

How the data were processed

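RNA was sequenced as 50 bp pairs from 10 libraries, with 150 ng of total RNA each and a kit that does not record strand, per the labels' protocols. The authors deposited a file of whole-number counts per gene for each library, plus 1 log2 matrix that covers the 10 libraries. Per the submitters' processing notes, STAR, HTSeq 0.5.4p5 and hg19 were used, whereas the series text gives Bowtie/TopHat with a mouse reference and RSEM. The human symbols and the HTSeq-type summary entries in the count files go with the notes. Those entries, of which reads in no gene made up 11.6% to 14.1% of a column, were left out. The deposited log2 matrix held log2 of the count plus 0.5 per effective library size.

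The main test was edgeR 4.0.16 under R 4.3.3 (filterByExpr by group, TMM scaling, robust quasi-likelihood fit of 4 group means over all libraries), two-sided, with Benjamini-Hochberg adjustment over 13349 genes. CPM use the TMM factors. Alternatives were DESeq2 1.42.0 and its size factors, no filter, 1 line at a time, a replicate block, limma 3.58.1 on the deposited matrix, and leaving out each library. In simulated counts at 1.2- and 1.3-fold, 56% and 78% of changed genes were recovered for HepG2 and 52% and 60% for SK-Hep1. These were over 13349 genes with 9 and 10 false calls, and no smaller change was simulated. Changed genes were drawn only above a least mean count in the line. None of the factors reached that mean in SK-Hep1, so the recovery given for SK-Hep1 does not cover them. Counting intervals and the floor of 3 counts cover counting error only. No replicate pair matched within counting error (chi-square per degree of freedom 1.41 to 3.81). Same-numbered libraries of the arms had correlated deviations of -0.245 to 0.0563, and differently numbered ones -0.0706 to 0.289. In HepG2 the numbers thus gave no sign of pairing. With 2 libraries per SK-Hep1 arm, the deviations within an arm mirror each other, so this check cannot decide pairing in SK-Hep1.

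The factors and all lists were chosen with earlier results of these data known. Named are the 8 factors, up to 4 called genes per list with the smallest adjusted p, and NR0B2, ONECUT1, PPARGC1A and TRIB1 in any case. Of the genes the rule names, 1 is not reported here. Genes named with 3 or fewer counts in a group are given by counts. Exon lengths and 3′UTRs came from GENCODE 29 (GRCh38), and positions printed are on GRCh38.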

Additional observations from a re-analysis of the deposited data

Results flagged for a closer look

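The response to the decoy differed between the lines for 24 companion genes by the test of the difference itself (SK-Hep1 minus HepG2, log2, edgeR, adjusted p below 0.05), and for none of the 8 factors. Of the 24, values follow for 16. Among cofactors the difference was 1.08 for TLE4, 0.20 for PRMT1 and -0.43 for NCOA1. The PRMT1 call was lost in 8 of 15 alternatives (adjusted p up to 0.21) and the NCOA1 call in 6 of 15 (up to 0.138). Among bile acid genes the difference was -1.02 for ABCC3, a call lost in 2 of 15 alternatives, and -0.49 for ATP8B1. Among progenitor and biliary genes it was -0.99 for CD24, -0.34 for SPP1 and -2.00 for GPC3. The GPC3 value ran from -3.08 to -0.85 when 1 library was left out, with the call lost in 3 of 15 alternatives (adjusted p up to 0.626), and the SPP1 call was lost in 2 of 15. Hepatocyte genes differed in both directions, with 3.06 for FGA, 3.06 for FGB, 2.77 for FGG and 0.75 for CPS1, and with -2.30 for AFP and -4.74 for ALB. ALB had 4 counts in SK-Hep1 miR-17 TuD and 172 in SK-Hep1 NC TuD, so its value rests on traces. The ALB value ran from -8.83 to -3.82 when 1 library was left out. The values of AFP (18 and 138 counts in these groups) and GPC3 (9 and 51) rest on traces too. So do those of FGA (48 and 8), FGB (21 and 4) and FGG (24 and 5). FGA ran from 2.32 to 4.88. ENG, an endothelial marker, differed by -0.62 and COL1A1, a collagen, by -0.69. The ENG call was lost in 8 of 15 alternatives (adjusted p up to 0.203). The other 8 were CEBPB and CREBBP, at 0.44 and -0.28, which the naming rule does not cover, and APOA1, APOA2, AHSG, APOH, RBP4 and SNAI2, which had 3 or fewer counts in a group and are given no fold.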

How the results depend on the processing

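The 4 calls among the factors in HepG2 became 0 on the deposited log2 matrix, where 1 variance per gene is shared by both lines. The spread of HNF4A on that matrix was 0.0429 log2 within HepG2 arms and 1.18 within SK-Hep1 arms, while that of FOXA1, whose call was lost too, was 0.0641 and 0.0476. With the HepG2 libraries alone, a setting chosen after seeing the data, the matrix gave 3 calls (HNF4A 0.004, FOXA1 0.0177, FOXA3 0.034, and CEBPA not, at 0.0568). Leaving out 1 library gave 2 to 4 calls in HepG2, with 2 without miR-17 TuD replicate 2. Calls in the difference of responses became 1 (FOXA1) on the matrix. Calls in SK-Hep1 (0) and between the lines (7 in each arm) did not move beyond 1.5 times. With the replicate block the same 4 factors passed in HepG2 (HNF4A 0.0031, FOXA1 0.0103, CEBPA 0.0213, FOXA3 0.0454), and over all genes calls were 1872 with the block and 2571 without it in HepG2, 58 and 116 in SK-Hep1, and 227 and 500 for the difference. Leaving out 1 library gave 1793 to 2694 calls in HepG2, 49 to 171 in SK-Hep1 and 266 to 613 for the difference, SK-Hep1 libraries alone gave 274, and DESeq2 called 1714 genes in HepG2.

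Leaving out 1 library turned the sign of values that had not passed the test. In HepG2 the ranges were -0.15 to 0.021 for NR1H4, -0.23 to 0.23 for NR5A2 and -0.029 to 0.095 for NR0B2. In SK-Hep1 HNF4G ran from -0.29 to 0.46. For the difference of responses, HNF4G ran from -0.18 to 0.56 and NR5A2 from -0.040 to 0.43. For NR5A2 in SK-Hep1 against HepG2 with miR-17 TuD, the range was -0.32 to 0.15. The causes were not tested. Over all 80 gene values and their alternatives, 1192 kept sign and call, 91 lost a call, 1 gained one and 10 turned. Depth limits SK-Hep1, where the factors had 0 to 23 counts per library.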
